A study of Sus scrofa with 12 samples.

Results

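The 10 genes described here build the neuromuscular junction, the synapse at which a motor nerve commands a muscle fiber. They were taken by name, as CHRNA1, CHRNB1, CHRND, CHRNE, MUSK, LRP4, DOK7, RAPSN, AGRN and COLQ, and their regions were those with a midpoint in the gene or within 10 kb of it. This gave 77 of the 140081 accessible regions of the study, from 131 of the 217213 peak intervals that the authors listed. The assay was ATAC-seq, in which a transposase cuts open chromatin so that reads pile up where DNA is accessible. It was applied to longissimus dorsi from 3 boars of Duroc, a lean breed, and 3 boars of Luchuan, an obese Chinese breed. The boars were 180 days old, had been reared alike and were fasted overnight, and the labels name no treatment. The deposited table has 1 read count per interval and breed, read here as pooled over the 3 boars, so the spread between boars is unknown and no test between the breeds was possible.

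At the junction, nerve-derived agrin (AGRN) binds LRP4 on the fiber, LRP4 activates the receptor kinase MUSK, and DOK7 binds MUSK from inside the cell and keeps it active. This signal makes rapsyn (RAPSN) cluster the acetylcholine receptors, channels assembled from the alpha (CHRNA1), beta (CHRNB1), delta (CHRND) and, in adult muscle, epsilon (CHRNE) subunits. COLQ is the collagen tail that anchors acetylcholinesterase in the synaptic cleft. In adult fibers many of these genes are transcribed mostly by the few nuclei that lie beneath the synapse, and transcription of some of them spreads along the fiber after denervation. Whole muscle was measured here, so the signal comes mainly from nuclei away from the synapse and from other cells of the tissue, and a change in the number of nuclei of a type cannot be told apart from a change in accessibility per nucleus.

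Reads in all regions came to 20759894 for Duroc and 13746020 for Luchuan. To set the breeds on one scale, the log2 ratio of Luchuan to Duroc reads was centred on its median over the 68776 regions common to both breeds, which was -0.57 before centring. Centring also takes out any difference in signal that most regions share. With clean reads as the scale, every log2 ratio would be shifted by -0.20. A positive log2 ratio below therefore means more signal in Luchuan, and scaled Luchuan reads are the counts multiplied by 1.48. Each ratio has a 95% Clopper-Pearson interval, which covers counting error only and leaves out the spread between boars. It treats reads as independent, which they may not be, so it can be too narrow even for counting error. A difference is said to lie beyond counting error where this interval leaves out 0. A breed-specific region is a peak called in that breed alone, so its ratio leans toward that breed by selection. Over all regions the median ratio was -0.39 for Duroc-specific and 0.79 for Luchuan-specific peaks.

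The tissue label was checked against marker genes. All 12 skeletal muscle fiber markers, among them ACTA1 and CKM, had a region at a gene end, and they held from 95.1 to 442 reads per kb of their windows, gene body and 10 kb flanks, with Duroc and scaled Luchuan reads added. The junction genes had a median of 45.9 and a highest value of 181, at CHRNB1, on this scale. The CHRNB1 window also holds regions inside neighbouring genes. Markers of the motor neuron, whose cell bodies lie outside muscle, ranged from no region for SLC18A3 and SLC5A7 to 41.3 for SYT2. Most of the other lists were low. The endothelial list held at most 14.1, the fibro-adipogenic list at most 22.2, the satellite cell list at most 53.9, the adipocyte list at most 118 at CIDEC, which had no region at a gene end, and the leukocyte list at most 204 at CD68. Beyond counting error, the Duroc and Luchuan signals were higher for 1 and 1 motor neuron genes, 0 and 2 endothelial, 0 and 0 fibro-adipogenic, 2 and 0 satellite cell, 1 and 1 adipocyte and 2 and 1 leukocyte genes, beside 24.7% and 23.2% of all genes. Their part in the results below was not tested.

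The median region of the junction genes differed little between the breeds. The 77 regions had a median of 109 Duroc and 73 Luchuan reads, against 61 and 38 over all regions. Their median log2 ratio was -0.055, with an interquartile range of -0.35 to 0.15, beside a median of -0.018 and a range of -0.36 to 0.32 over all regions. None of the 77 was past 2-fold in favour of Duroc, where 6.02% of all regions were. In favour of Luchuan 1 region was past 2-fold, or 1.30%, where 7.78% of all regions were. The shares over all regions, here and below, were not matched for reads or peak class. Ratios of regions with few reads scatter more by counting alone, so no conclusion is drawn from the lower shares.

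**Figure D1:**
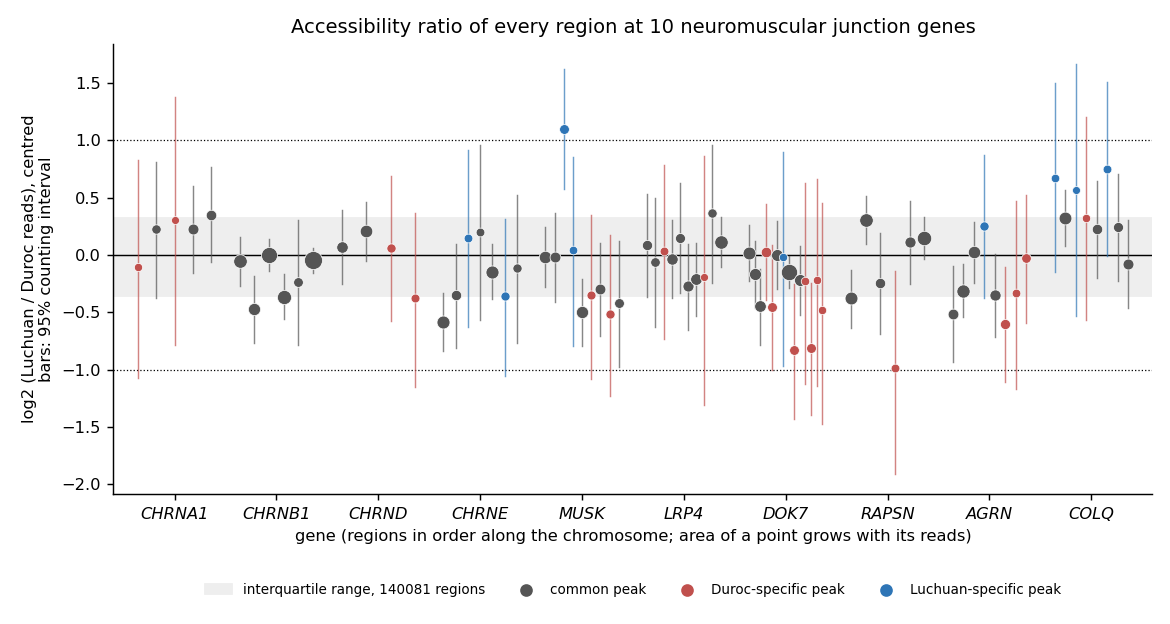
Log2 ratio of Luchuan to Duroc reads, centred on the common regions, for each of the 77 regions, grouped by gene and ordered along the chromosome. Bars are 95% counting intervals, point area grows with the reads of the region, colour gives the peak class, the grey band is the interquartile range of all 140081 regions and dotted lines mark 2-fold; only 1 region, in MUSK, lies past a dotted line, at 1.10.

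Counting error was exceeded more often toward Duroc than toward Luchuan. The Duroc signal was higher beyond counting error at 13 of the 77 regions, or 16.9%, near the 15.4% of all regions. The Luchuan signal was higher at 3 regions, or 3.90%, where the share over all regions was 13.6%. These 3 lie in MUSK, RAPSN and COLQ. The 13 lie in the windows of DOK7 (4), AGRN (3), CHRNB1 (2), RAPSN (2), CHRNE (1) and MUSK (1). With regions inside another protein-coding gene left out, 9 of the 13 remained, among 62 regions. With regions nearer to another gene's end left out, 7 remained, among 56. With 1.5-fold as the limit, 4 regions of RAPSN, DOK7 and AGRN were higher in Duroc and 3 regions of MUSK and COLQ were higher in Luchuan, with shares of 15.3% and 15.3% over all regions. The intervals of the 2 COLQ regions among these included 0. All 4 were Duroc-specific peaks and all 3 were Luchuan-specific peaks, so these directions were favoured by the selection of the peaks.

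By gene, the summed reads were higher in Duroc beyond counting error for CHRNE, AGRN, DOK7, MUSK and CHRNB1, and higher in Luchuan for COLQ and CHRNA1. Among 16985 protein-coding genes with a region, 24.7% were higher in Duroc and 23.2% in Luchuan by the same rule. Whether the counts of 5 and 2 among only 10 genes differ from these shares was not tested. For LRP4, RAPSN and CHRND the intervals included 0. In rising order of the log2 ratio the genes were CHRNE at -0.30, AGRN at -0.24, DOK7 at -0.18, MUSK at -0.14, CHRNB1 at -0.11, LRP4 at -0.0018, RAPSN at 0.036, CHRND at 0.11, CHRNA1 at 0.25 and COLQ at 0.27. The intervals of neighbours in this order overlapped throughout. Those of COLQ and CHRNA1 lay wholly above those of the 5 genes higher in Duroc, which follows from the rule by which they were called. All 10 ratios lay between the 10th and the 90th percentile of all genes, -0.31 and 0.35, with COLQ at the 85.9th.

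**Figure D2:**
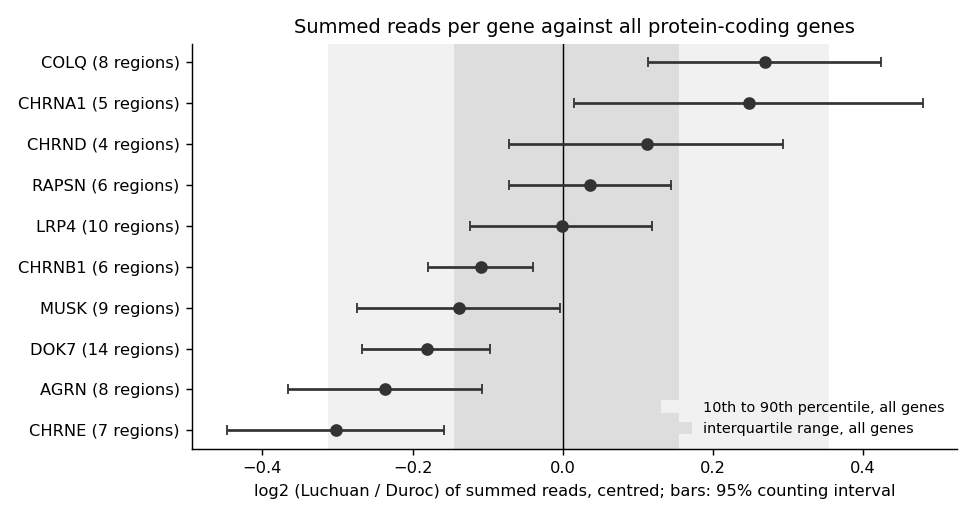
Log2 ratio of the summed Luchuan and Duroc reads of each gene, with its 95% counting interval. The grey bands give the interquartile range, -0.14 to 0.15, and the 10th to 90th percentile, -0.31 to 0.35, of 16985 protein-coding genes, and all 10 points lie inside the wider band.

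Most of the muscle fiber markers were higher in Duroc. Of the 12, 10 were so beyond counting error and none was higher in Luchuan, where 24.7% and 23.2% of all genes were, and their median log2 ratio was -0.32. Ratios ranged from -0.61 for MYH4, a fast myosin heavy chain, to 0.070 for MYOD1. The part of this difference in the ratios of the junction genes was not tested.

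In level, the junction genes spanned a wide range. CHRNB1 had the most Duroc reads per kb of accessible region, 852, at the 98.3rd percentile of all genes. Only 1 of its 6 regions is nearest to an end of CHRNB1, and 3 lie inside another protein-coding gene, so this level is not that of CHRNB1 alone. DOK7 followed with 565 and RAPSN with 517, where RAPSN includes a region by an end of PSMC3. The lowest were MUSK with 309, COLQ with 267 and CHRNA1 with 256, all below the median of 439 over all genes. DOK7 also had the densest set of regions, 2.83 per 10 kb of its window, at the 95.9th percentile, and MUSK the sparsest, 0.701. Scaled Luchuan reads per kb were also highest at CHRNB1, at 790.1, and were 304 at CHRNA1.

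**Figure D3:**
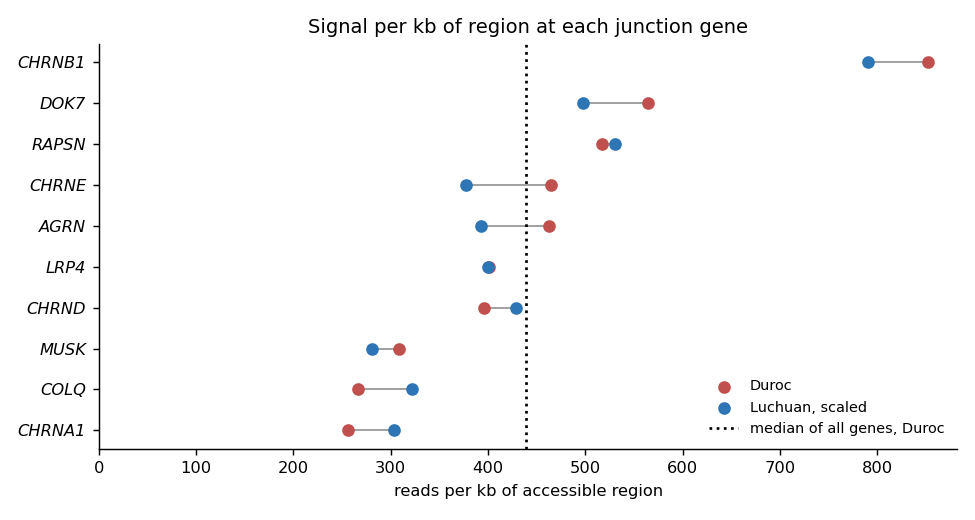
Reads per kb of accessible region at each gene, for Duroc (red) and scaled Luchuan reads (blue), with the median Duroc value of all genes, 439, as a dotted line. Genes run from CHRNA1, at 256 Duroc reads per kb, to CHRNB1, at 852, and the red and blue points of a gene lie close together.

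The acetylcholine receptor genes showed no region past 2-fold in any of their 22 regions. CHRNA1, on chromosome 15 of Sscrofa11.1 from 80673072 to 80692256, encodes the subunit that carries most of the acetylcholine binding site. Its 5 regions held 348 Duroc and 279 Luchuan reads together, the fewest of the 10 genes, and a log2 ratio of 0.25 (0.015 to 0.48). The region across the end with the higher coordinate, chr15:80692103-80692453, had 137 Duroc and 108 Luchuan reads. The region 7.28 kb beyond that end, chr15:80699318-80699745, had 109 and 94 reads and the highest ratio of the gene, 0.35 (-0.061 to 0.76). Of the 5 regions, 4 were above 0 and no single one lay beyond counting error. The sum lost its place beyond counting error in 4 of 12 alternatives, and was 0.26 (-0.036 to 0.56) without the region with the most reads.

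CHRND, the delta subunit, lies on chromosome 15 from 133040310 to 133047839, next to CHRNG, the gamma subunit that the epsilon subunit replaces after birth. The region across its end with the lower coordinate, chr15:133039880-133040522, had 295 Duroc reads, 230 Luchuan reads and a log2 ratio of 0.21 (-0.048 to 0.46). Summed over 4 regions, CHRND had 588 and 429 reads and a ratio of 0.11 (-0.071 to 0.29). One of the 4, with 46 and 24 reads, lies inside CHRNG. CHRNG itself had 663 Duroc and 457 Luchuan reads in 3 regions and a ratio of 0.030 (-0.15 to 0.20). Both subunit genes of this locus thus had intervals that include 0.

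CHRNB1, the beta subunit, lies on chromosome 12 from 52749422 to 52774642. The region across its end with the lower coordinate, chr12:52749266-52750327, had 1029 Duroc and 694 Luchuan reads, the most of any region at an end of these genes, and an interval of -0.14 to 0.14. Inside the gene, chr12:52756516-52757342 had 621 and 326 reads and a log2 ratio of -0.36 (-0.56 to -0.17). The strongest region of the window, chr12:52778773-52780524, with 1743 and 1139 reads, lies 0.074 kb from an end of SLC35G6. All 6 regions were common to both breeds and all 6 ratios were below 0. The summed ratio of -0.11 (-0.18 to -0.039) rests on 5 regions nearer to an end of another gene, and without them the interval was -0.14 to 0.14.

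CHRNE, the epsilon subunit, stands in the annotation on chromosome 12 from 51999504 to 52016592 as a gene without a protein, 17.1 kb long. No region lay within 1 kb of these ends. The region with the lowest ratio, chr12:51992087-51992734, 7.09 kb outside the gene, had 422 Duroc and 190 Luchuan reads and a ratio of -0.58 (-0.84 to -0.33). The region with the most reads, chr12:52010706-52011479 inside the gene, had 388 and 237 and a ratio of -0.14 (-0.38 to 0.092). The summed ratio of -0.30 (-0.45 to -0.16) was the lowest of the 10 genes, and with the gene body alone it was -0.14 (-0.35 to 0.075).

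Among the signalling genes, AGRN lies on chromosome 6 from 63366017 to 63398311. Its 8 regions held 1342 Duroc and 769 Luchuan reads, with a log2 ratio of -0.24 (-0.37 to -0.11). The region across its end with the lower coordinate, chr6:63365935-63366325, had 185 and 98 reads and a ratio of -0.35 (-0.72 to 0.011). The region just outside, chr6:63365173-63365617, had 293 and 201 reads and a ratio of 0.023 (-0.24 to 0.29). Inside the gene, chr6:63377511-63377841, a Duroc-specific peak, had 112 and 50 reads and a ratio of -0.60 (-1.11 to -0.10). The region with the most reads, chr6:63362884-63363638, with 437 and 238, is 0.060 kb from an end of ISG15, an interferon-induced gene. Agrin at the synapse is made chiefly by the motor neuron, and the muscle makes a form of it as well. Without the 5 regions nearer to an end of another gene, the sum turned to 0.045 (-0.18 to 0.26). Among these 5 was the region across the end of AGRN, which also lies by LOC110261384. Another, chr6:63377511-63377841 inside the gene, is 11.7 kb from an end of AGRN and 11.5 kb from one of LOC110261384. With the gene body alone the sum was -0.35 (-0.59 to -0.11), and the interval of the sum lay below 0 in 10 of 12 alternatives.

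LRP4, the agrin receptor, lies on chromosome 2 from 15616137 to 15672876 and was the gene with the smallest difference. Its 10 regions held 1385 Duroc and 934 Luchuan reads, with a log2 ratio of -0.0018 (-0.12 to 0.12). Inside the gene, 5 regions lay within 3.73 kb of the end with the lower coordinate, and the strongest of them, chr2:15619631-15620098, had 226 and 132 reads and a ratio of -0.21 (-0.53 to 0.11). The strongest region of the window, chr2:15680502-15681183, with 428 and 313 reads, lies 0.12 kb from an end of CKAP5. Single ratios were split evenly, 5 above 0 and 5 below, and none lay beyond counting error.

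MUSK lies on chromosome 1 from 251650151 to 251758538 and held the only region past 2-fold. This region, chr1:251654028-251654440, is 413 bases long and inside the gene, 4.08 kb from the end with the lower coordinate. It had 78 Luchuan and 54 Duroc reads, a Luchuan-specific peak with a log2 ratio of 1.10 (0.58 to 1.63). The 2 regions between it and that end had intervals that include 0, and the nearer one, chr1:251650502-251651317, had 305 Duroc and 204 Luchuan reads. Deeper in the gene most ratios were below 0, except 0.046 for a Luchuan-specific peak of 33 and 23 reads. At chr1:251681909-251682556, 32.1 kb from the same end, 307 Duroc and 147 Luchuan reads gave a ratio of -0.50 (-0.79 to -0.21), and the 4 regions beyond it lay between -0.51 and -0.30 with intervals that include 0. Summed over 9 regions, MUSK had 1187 and 728 reads and a ratio of -0.14 (-0.27 to -0.0044), so opposite local differences stand in 1 gene. This interval included 0 in 2 of 12 alternatives. An annotated long noncoding RNA, LOC110256901, covers all of these regions as well.

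DOK7 lies on chromosome 8 from 2089645 to 2119076 and had the most regions, 14, with 2998 Duroc and 1785 Luchuan reads. Its summed log2 ratio was -0.18 (-0.27 to -0.096), and 11 of its 14 regions were below 0. Of the 14, 7 are Duroc-specific peaks, 1 is Luchuan-specific and 6 are common. Ratios below 0 were favoured by selection for the 7, which the sum includes. The region with the most reads, chr8:2106653-2108085, an open stretch of 1433 bases 11.7 kb from the nearer gene end, had 1137 Duroc and 692 Luchuan reads and a ratio of -0.15 (-0.29 to -0.012). The largest differences stood beside it and beyond the end with the higher coordinate. At chr8:2108618-2108779, 92 and 35 reads gave -0.83 (-1.43 to -0.25), and at chr8:2120228-2120613, 96 and 37 reads gave -0.81 (-1.40 to -0.25). The region across the end with the lower coordinate, chr8:2089517-2089899, had 232 and 115 reads and a ratio of -0.45 (-0.78 to -0.12). Both peaks of this pair are Duroc-specific, so ratios below 0 were favoured by their selection. The region at the gene end is common to both breeds, as is chr8:2093589-2093951, which had 238 and 161 reads and an interval of -0.29 to 0.30.

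RAPSN, the receptor-clustering scaffold, lies on chromosome 2 from 15166968 to 15181011 and held differences in both directions. Near its end with the lower coordinate, chr2:15167439-15168386 had 415 Duroc reads, 346 Luchuan reads and a log2 ratio of 0.30 (0.094 to 0.51). Inside the gene, 3.54 kb from that end, the Duroc-specific peak chr2:15170409-15170597 had 47 and 16 reads and a ratio of -0.99 (-1.91 to -0.14), just under 2-fold. Outside the gene, chr2:15158136-15158830 lies inside CELF1 and had 385 and 200 reads and a ratio of -0.38 (-0.63 to -0.13). Summed over 6 regions, 1713 and 1186 reads gave 0.036 (-0.072 to 0.14). The region with the most reads, 590 and 442, lies 0.018 kb from an end of PSMC3, a proteasome subunit gene.

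COLQ, on chromosome 13 from 2677738 to 2755635, was the gene most in favour of Luchuan. Of its 8 regions, 7 had ratios above 0, but 3 of these are Luchuan-specific peaks, for which such ratios were favoured by selection. The sum of 756 Duroc and 615 Luchuan reads, these peaks included, gave a log2 ratio of 0.27 (0.11 to 0.42). The strongest region, chr13:2692859-2693644, 15.5 kb inside the gene, had 310 and 262 reads and a ratio of 0.32 (0.081 to 0.57). It was the only one beyond counting error by itself. Without it the sum of the remaining 7 regions had a ratio of 0.23 (0.024 to 0.43). The Luchuan-specific peak chr13:2746575-2746872, with 34 Luchuan and 30 Duroc reads, had the highest ratio, 0.75 (-0.0045 to 1.51). All 8 regions are nearer to an end of COLQ than to an end of any other protein-coding gene, but none is within 1 kb of its ends.

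**Figure D4:**
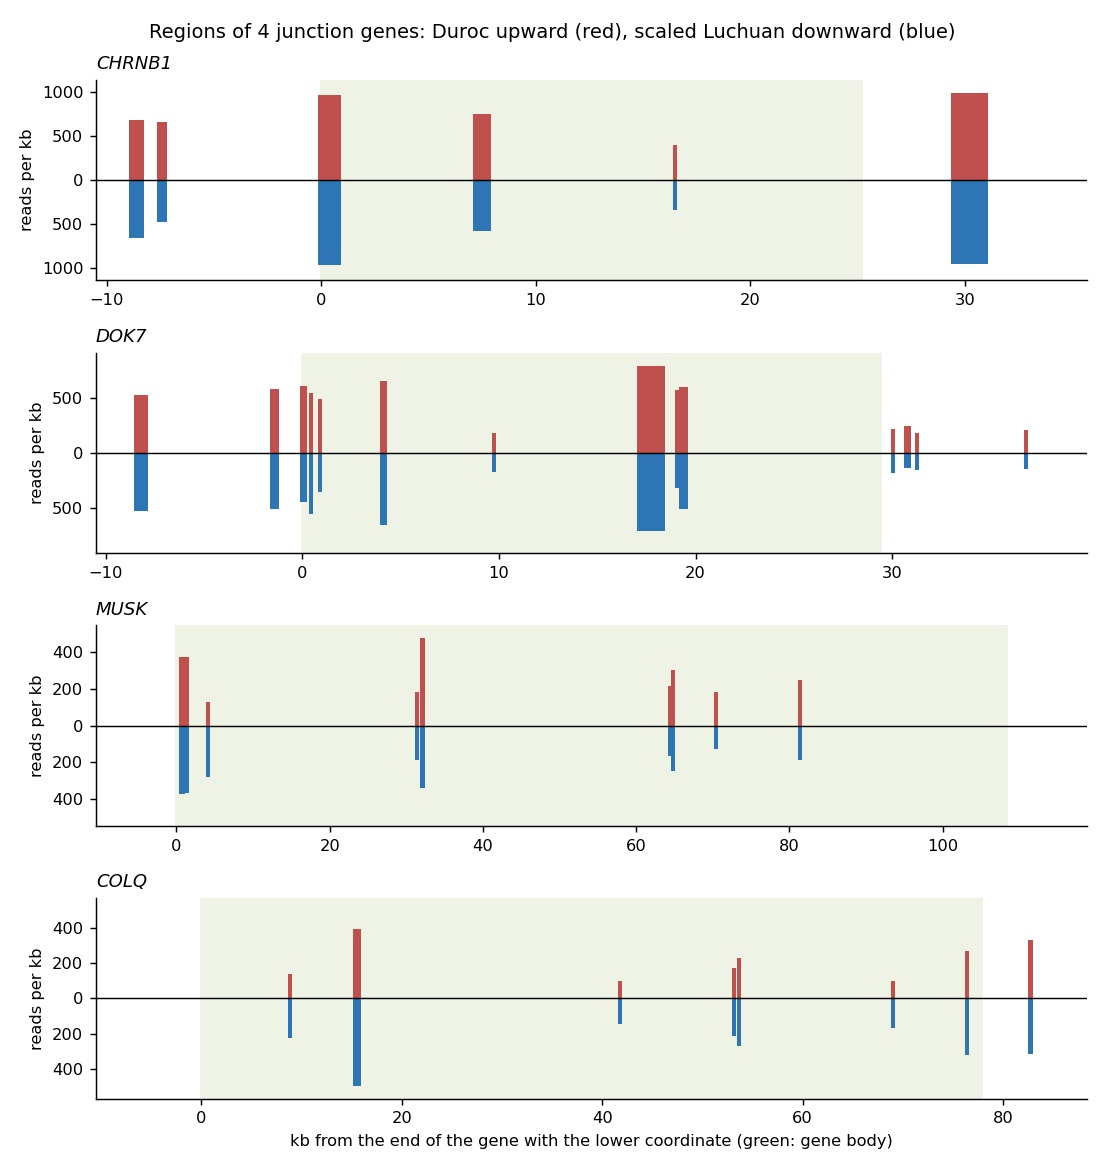
Regions of CHRNB1, DOK7, MUSK and COLQ by distance in kb from the gene end with the lower coordinate, with the gene body in green. Bars give reads per kb of region, Duroc upward and scaled Luchuan downward, and narrow regions are drawn wider than they are. The Luchuan bar exceeds the Duroc bar at 7 of 8 COLQ regions, of which 3 are Luchuan-specific peaks. In MUSK it does so at the Luchuan-specific peak 4.08 kb from the end, where it is 280 against 131.

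Peak class was not used to choose the regions, and position only through the window of the gene and its 10 kb flanks. Of the 77, 17 lay at an end of the gene, 36 inside it and 24 in the flanks. Regions at gene ends had medians of 137 Duroc and 98 Luchuan reads and a median log2 ratio of 0.023. Regions inside the genes had 87.5 and 48 reads and -0.15, and regions in the flanks 152 and 95 reads and -0.11. In the flanks 13 of 24 regions were nearer to an end of another protein-coding gene, and 15 of all 77 lay inside another protein-coding gene. By class, 48 regions were common to both breeds, 20 Duroc-specific and 9 Luchuan-specific, or 62.3%, 26.0% and 11.7%, beside 49.1%, 31.8% and 19.1% of all regions. Luchuan-specific peaks of the junction genes had a median ratio of 0.25, beside 0.79 for this class in all regions, and the Duroc-specific peaks had -0.28 beside -0.39.

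A list of 59 other genes of the junction gave the wider pathway, and 57 were found in the annotation, 55 of them with a region. Their median log2 ratio was 0.0045. The Duroc signal was higher beyond counting error for 21 genes and the Luchuan signal for 12, and 22 genes had intervals that include 0, where 24.7% and 23.2% of all genes were higher in Duroc and in Luchuan. By a limit of 1.5-fold beyond counting error, where 2.72% of all genes were higher in Duroc and 4.43% in Luchuan, 1 gene of the list was higher in Duroc and 0 in Luchuan.

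That gene was COL13A1, which encodes the transmembrane collagen XIII of the synaptic cleft. It had 1484 Duroc and 616 Luchuan reads in 8 regions and a log2 ratio of -0.70 (-0.84 to -0.57), at the 2.17th percentile of all genes. Most of this stood in 4 regions. At chr14:72833824-72834721, inside the gene, 545 Duroc and 141 Luchuan reads gave a ratio of -1.38 (-1.66 to -1.11), and the Duroc-specific peak beside it, chr14:72832750-72833131, had 146 and 30 reads and a ratio of -1.72 (-2.33 to -1.14). Near its end with the lower coordinate, the common region chr14:72787535-72788025 had 190 and 78 reads and a ratio of -0.72 (-1.12 to -0.33), and a Duroc-specific peak had 137 and 48 reads.

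ACHE, the acetylcholinesterase that COLQ anchors, had 1011 Duroc reads, 531 Luchuan reads and a log2 ratio of -0.36 (-0.52 to -0.21), an interval wholly below that of COLQ. Its region across the end with the lower coordinate, chr3:8731843-8732815, had 500 and 272 reads and a ratio of -0.31 (-0.53 to -0.10). The Duroc-specific peak chr3:8738844-8739280, near the other end, had 137 and 43 reads and a ratio of -1.11 (-1.63 to -0.60). The enzyme and its anchor therefore differed in direction in these pooled counts on the scale used here. With clean reads as the scale, the interval of COLQ included 0, at 0.068 (-0.088 to 0.22). ACHE was not put through the alternatives.

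SCN4A, the muscle sodium channel concentrated at the synapse, had a log2 ratio of -0.23 (-0.28 to -0.17), from 6429 Duroc and 3714 Luchuan reads. UTRN, encoding utrophin, the junctional relative of dystrophin, had 6792 and 4457 reads in 53 regions and a ratio of -0.041 (-0.096 to 0.014). Over the 28 postsynaptic and basal lamina genes the median was -0.084, with 14 higher in Duroc and 5 in Luchuan beyond counting error. The shares of all genes to set beside this count and those of the smaller groups below are again 24.7% and 23.2%.

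The 8 genes of subsynaptic transcription and its nerve signal, among them GABPA and ETV5, ETS factors linked to synaptic transcription, had a median of 0.059, with 2 higher in Duroc and 2 in Luchuan. Of the 10 genes that respond to denervation, 8 were found, and 3 were higher in Duroc and 3 in Luchuan, with a median of 0.067. Among them MYOG had -0.16 (-0.25 to -0.062) and GADD45A 0.34 (0.23 to 0.44). Thus the denervation genes did not share a direction. The 5 glycosylation genes of congenital myasthenia had a median of 0.059 and 1 higher in Luchuan, and the presynaptic genes, of which 6 of 8 had a region, a median of -0.084, with 2 higher in Duroc and 1 in Luchuan.

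**Figure D5:**
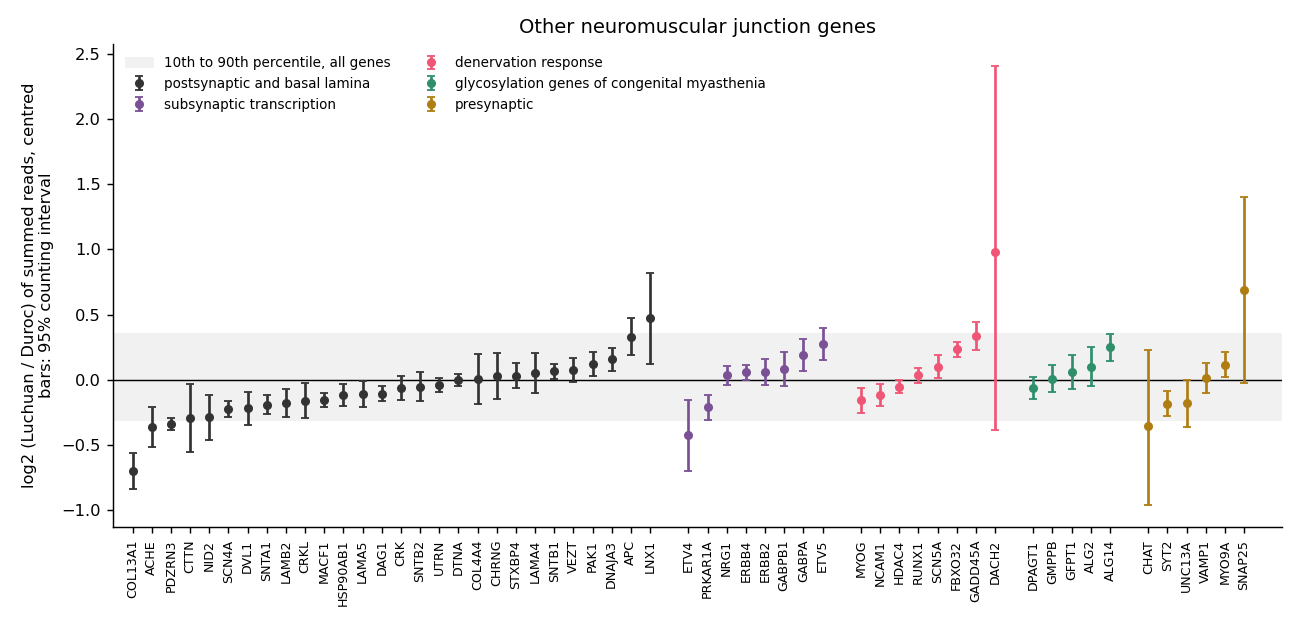
Log2 ratio of the summed Luchuan and Duroc reads of 55 other junction genes with a region, in 5 groups, with 95% counting intervals and the 10th to 90th percentile of all genes in grey. COL13A1 is the lowest, at -0.70, and the widest interval belongs to DACH2, which had 9 Duroc and 12 Luchuan reads.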

How the data were processed

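ATAC-seq was made by the study on 3 Duroc and 3 Luchuan muscle samples, and the 6 RNA-seq samples were not analysed here. Per the labels, Trimmomatic 0.36 served for read filtering, Bowtie2 for alignment to Sus scrofa 11.1 and MACS2 for peak calling, while duplicate removal, transposase shift and pooling are not given in the sources used here. The deposited values are raw counts of reads in each interval, 1 for each breed, not scaled for depth. Their columns of a rescaled log2 fold change, average signal and p-value were not used. Starts were counted from 1. Common intervals that overlapped or touched were joined, with the longest standing for the region. Genes came from RefSeq for Sscrofa11.1, without strand, exons or promoters, and no sequence was used. A region at a gene end spans it or has its midpoint within 1 kb. No pseudocount or filter was used, and tests for replicated counts could not be made with 1 count per breed. By rule, the text names the 10 genes, the region of each with the most reads, regions past 2-fold beyond counting error, other junction genes past 1.5-fold (COL13A1), and CHRNG, ACHE, UTRN and SCN4A. Starts being unknown, regions across gene ends replaced those at starts. Other regions and genes were chosen for naming after their values had been seen. The members, lists and limits were chosen with earlier results of these data known. One list of marker genes is not reported here. The intervals and centring were tested on simulated data with independent counts, which cannot show the effect of dependent reads or of the spread between boars. Tables were handled with pandas 2.3.3 and NumPy 2.4.6 in Python 3.11.15, intervals came from SciPy 1.17.1, and Matplotlib 3.10.9 drew the plots.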

Additional observations from a re-analysis of the deposited data

How the results depend on the processing

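Of 13 alternatives, 1 (leaving out regions nearer to another gene's end) was chosen after seeing the data. Scaling by the study's clean reads moved every log2 ratio by -0.20 and gave 3 regions past 2-fold in Duroc and 0 in Luchuan, 28 and 1 beyond counting error, a median of -0.26 and 0 genes higher in Luchuan. A signal-dependent line gave 1 region past 2-fold in Duroc and 3 genes higher there. Counting every interval gave 5 of 131 intervals higher in Luchuan beyond counting error, beside 3 of 77 regions in the main setting, and 2 genes higher there as before. Windows of 2 kb gave 8 of 56 regions and 3 genes higher in Duroc, and 1 gene higher in Luchuan. The gene body alone gave 7 of 48 regions higher in Duroc and 1 gene higher in Luchuan. The main setting had 13 of 77 regions higher in Duroc, so part of these changes is the smaller number of regions. A limit of 1.5-fold gave 4 and 3 regions, all of them breed-specific peaks. Without each gene's strongest region, 1 gene was higher in Luchuan. Without regions nearer to other genes, 7 of 56 regions and 3 genes were higher in Duroc, and AGRN turned from -0.24 to 0.045 (-0.18 to 0.26). With the gene body alone AGRN was at -0.35 (-0.59 to -0.11). DOK7 stayed higher in Duroc beyond counting error in all 12 alternatives for sums, and COLQ higher in Luchuan in all but clean-read scaling (0.068). None of these alternatives left out the breed-specific peaks. CHRNA1 was higher in Luchuan beyond counting error in 8 of 12. Of 120 single-gene values, 107 moved within the counting interval. The causes of these changes were not tested. No paired analysis was possible because the table has no values per boar, which also kept leaving out replicates from being run. Depth limits single weak regions.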
